A study of Mus musculus with 6 samples.

Results

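The 47 type I interferon-stimulated genes described here were chosen by name, as the rows of the deposited gene table that carry the symbols of a list, and all 47 were found among its 33965 genes. They were measured by bulk RNA-seq, which averages the RNA of tumor cells, immune cells and stroma in a piece of tissue, in 6 subcutaneous tumors of MC38, a mouse colon carcinoma line, in C57BL/6 hosts. Of these tumors, 3 were from PBS-treated animals and 3 from animals treated with GB2, a prodrug that couples the STING agonist MSA-2 to artesunate, an inhibitor of TREM2, by a disulfide that opens in the presence of glutathione. The labels give the tumors neither a dose nor a time, nor the age or sex of the mice, and all 6 carry the same line in the same strain with no engineered allele named. Nothing in the labels says whether tumors of a group came from separate experiments, so the p-values measure the spread between these samples, which may be partly technical.

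Type I interferons are cytokines that cells make when sensors such as cGAS and STING, RIG-I and MDA5 or Toll-like receptors find nucleic acid out of place. They bind the receptor pair IFNAR1 and IFNAR2, whose kinases JAK1 and TYK2 phosphorylate STAT proteins such as STAT2, which joins IRF9 in the factor ISGF3. ISGF3 binds a promoter motif called the interferon-stimulated response element (ISRE), and the genes it turns on encode the sensors themselves, enzymes that stop viral RNA and protein synthesis, and regulators that feed back on the pathway. Interferon-gamma acts through another motif, the gamma-activated site (GAS), and many genes respond to both.

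Promoter sequences were available for 36 of the 47 genes, in 42 windows of 300 bases that run from 250 bases before to 50 bases after an annotated start site (RefSeq, build GRCm38.p6). An ISRE core, written as GAAANNGAAA and searched on both strands, was found in the windows of 17 of the 36 genes (47.2%), against 3.99% of the 27025 genes in the promoter table. A GAS motif, written as TTCNNNGAA and identical on both strands, was found in 7 of the 36 (19.4%) against 9.55% of all genes. Both motifs were present in 4 windows and overlapped in 2. The stretches upstream of the start site are shown for 5 genes, chosen after their values were seen. Slfn5 and Lgals9 were higher in every GB2 tumor than in every PBS tumor, Isg15 and Ifit1 have several ISRE cores but similar means in both groups, and Irf7 has no core in its window although its groups were separate. Each stretch runs 5′ to 3′ on the strand of the gene and ends at the base before the start site, and capitals mark ISRE cores.
Slfn5 (chr11:82951852-82952101, plus strand): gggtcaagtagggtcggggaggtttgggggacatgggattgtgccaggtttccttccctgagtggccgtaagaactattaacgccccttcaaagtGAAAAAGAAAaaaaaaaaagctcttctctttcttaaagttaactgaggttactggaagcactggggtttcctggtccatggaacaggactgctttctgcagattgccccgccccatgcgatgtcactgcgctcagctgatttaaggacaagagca
Lgals9 (chr11:78984925-78985174, minus strand): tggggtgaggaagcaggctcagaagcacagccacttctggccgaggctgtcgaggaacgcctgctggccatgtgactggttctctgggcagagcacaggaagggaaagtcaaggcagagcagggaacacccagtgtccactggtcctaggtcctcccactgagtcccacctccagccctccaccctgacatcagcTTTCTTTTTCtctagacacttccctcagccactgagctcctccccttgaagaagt
Isg15 (chr4:156200819-156201068, minus strand): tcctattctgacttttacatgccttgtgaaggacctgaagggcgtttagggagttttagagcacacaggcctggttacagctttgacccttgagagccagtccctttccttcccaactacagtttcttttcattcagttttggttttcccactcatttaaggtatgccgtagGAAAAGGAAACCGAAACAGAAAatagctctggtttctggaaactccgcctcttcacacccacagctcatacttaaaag
Ifit1 (chr19:34640639-34640888, plus strand): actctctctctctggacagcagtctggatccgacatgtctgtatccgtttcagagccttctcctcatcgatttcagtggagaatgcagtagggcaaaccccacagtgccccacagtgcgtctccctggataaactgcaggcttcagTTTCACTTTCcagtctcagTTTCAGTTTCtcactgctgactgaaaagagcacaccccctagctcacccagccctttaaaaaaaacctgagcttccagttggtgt
Irf7 (chr7:141266425-141266674, minus strand): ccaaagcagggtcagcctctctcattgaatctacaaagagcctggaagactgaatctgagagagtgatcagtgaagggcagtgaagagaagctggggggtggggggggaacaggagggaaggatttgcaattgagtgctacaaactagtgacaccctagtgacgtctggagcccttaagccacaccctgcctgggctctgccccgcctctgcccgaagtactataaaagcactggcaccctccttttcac
The cores of Isg15 begin 78, 72 and 66 bases before the start site and overlap each other, while the 2 cores of Ifit1 begin 104 and 85 bases before it and are read on the opposite strand. The upstream cores of Slfn5 and Lgals9 begin 155 and 55 bases before the start, and Lgals9 holds a second one downstream of it. A match describes letters in a window and is not evidence of binding, and a window with no match says only that these letters are absent there.

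As a whole the interferon-stimulated genes were higher in GB2 tumors, but by modest amounts and unevenly, with 0 of them called by edgeR and 5 by DESeq2. All 47 passed the filter on low counts and were tested. The fitted value was higher in GB2 tumors for 45 of them (95.7%), where 48.3% of the 19602 tested genes were higher, and lower for 2, Isg20 and Ifit3b. Their median log2 fold change was 0.72, against -0.02 over all tested genes, and 19 of them were at least 2-fold higher, as were 7.35% of all tested genes. The list was chosen with earlier results of these data known, and its genes varied together from tumor to tumor. These shares therefore describe the list and are not 47 separate observations. A gene was called where its adjusted p was under 0.05 and its change 2-fold or more. The quasi-likelihood test of edgeR called 0 of the 47 genes, as it called 0 of all genes tested (0.0%). The smallest adjusted p of the 47 was 0.186, for Slfn5. At an unadjusted p under 0.05, 18 of them were higher (38.3%, where 4.69% of all tested genes were) and 1 was lower, Isg20 (where 2.24% of all genes were lower). The 18 higher genes are Irf7, Irf9, Ddx58, Ifih1, Eif2ak2, Oas1a, Oas3, Oasl1, Usp18, Trim25, Cmpk2, Rtp4, Xaf1, Ifitm1, Lgals9, Parp14, Trim30a and Slfn5. The lowest GB2 tumor was above the highest PBS tumor in 17 genes (36.2%, against 8.61% of all genes) and the reverse held in 1, Isg20 (against 6.68%). DESeq2, run as an alternative, called 4 of them higher, namely Irf7, Irf9, Ddx58 and Slfn5 (1.45% of all genes it tested were called higher), and 1 lower, Isg20 (0.155% of all genes).

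**Figure D1:**
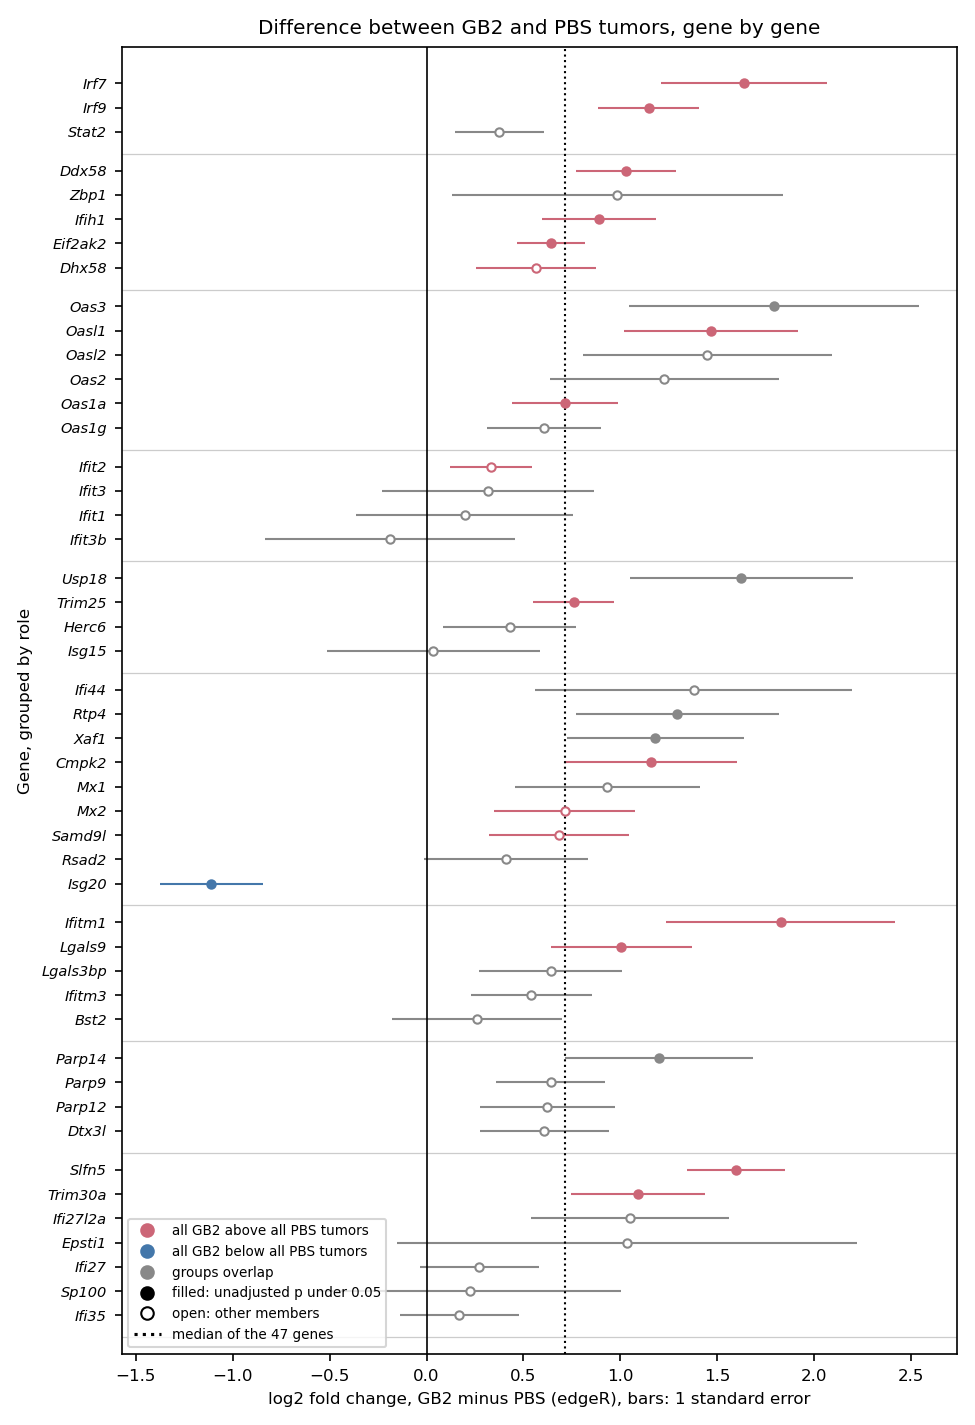
Log2 fold change of GB2 over PBS tumors for each of the 47 genes (edgeR, horizontal axis; bars are 1 standard error), grouped by role from transcription factors at the top to other interferon-induced genes at the bottom. The points lie right of 0 except Ifit3b and Isg20, around a median of 0.72 (dotted line), and Isg15 sits closest to 0.

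In the values that follow, CPM are deposited counts scaled to the TMM-adjusted size of the library, the 3 values of a group are given in the order of tumors 1, 2 and 3, and adjusted p are Benjamini-Hochberg values over all tested genes from the edgeR quasi-likelihood fit. Groups are called separate where their ranges do not overlap. Libraries held between 64764405 and 83690056 counts, at about 4 counts per read pair, and the GB2 libraries were the 3 largest. Mitochondrial genes took 0.989% of the counts of PBS tumor 1 and 2.61% to 3.65% of the other libraries. Counts in bulk tissue cannot tell fewer cells of a type from less RNA per cell.

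Of the 3 transcription factor genes of the pathway, Irf7 and Irf9 were among the clearest differences and Stat2 was not. Irf7 (ENSMUSG00000025498), the master factor for the production of interferon-alpha, stood at 3.09, 4.40 and 1.78 CPM in PBS tumors and at 6.45, 8.54 and 13.8 CPM in GB2 tumors. The groups did not overlap, and the lowest PBS and the highest GB2 value both belonged to a tumor numbered 3. The mean was 3.11-fold higher, with a log2 fold change of 1.64 (SE 0.43, adjusted p = 0.341). Irf7 lies on the minus strand of chromosome 7 from 140842619 to 140846394 in the coordinates of the deposited table, which are not those of GRCm38 and are used for all gene positions below, and overlaps Phrf1 on the plus strand, a far more abundant gene at 98.3 CPM in PBS tumors that had a log2 fold change of 0.22. Irf9 (ENSMUSG00000002325), the DNA-binding subunit of ISGF3, read 12.7, 21.6 and 13.2 CPM in PBS tumors against 32.6, 31.3 and 41.1 CPM in GB2 tumors. All GB2 values exceeded all PBS values by a wide margin, and the log2 fold change was 1.15 (SE 0.26, adjusted p = 0.276). Irf9 (chromosome 14, 55841028 to 55847487, plus strand) overlaps Rnf31 on the same strand, whose own log2 fold change was 0.08. Stat2, a partner of IRF9 in ISGF3, differed less, with 19.7, 32.8 and 22.8 CPM in PBS and 31.1, 30.6 and 36.02 CPM in GB2 tumors. PBS tumor 2 lay among the GB2 tumors for this gene (log2 fold change 0.38, SE 0.23, adjusted p = 0.761).

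The sensors of foreign RNA were all higher in GB2 tumors, and 3 of the 5 passed an unadjusted p under 0.05. Ddx58, which encodes RIG-I, had 11.8, 18.7 and 12.4 CPM in PBS tumors and 23.3, 29.3 and 34.9 CPM in GB2 tumors. No PBS tumor reached the lowest GB2 tumor (log2 fold change 1.03, SE 0.26, adjusted p = 0.317). Ifih1, which encodes MDA5, ran from 8.27, 9.05 and 6.04 CPM to 10.4, 13.9 and 19.00 CPM, with a narrow gap between PBS tumor 2 and GB2 tumor 1 (log2 fold change 0.89, SE 0.29, adjusted p = 0.555). Eif2ak2, the kinase PKR that halts translation when it binds double-stranded RNA, was the most abundant of the sensors by length, at 6.34 ± 1.28 FPKM (SD, n = 3) in PBS tumors and 10.4 ± 0.528 FPKM (SD, n = 3) in GB2 tumors. Its counts were 30.6, 33.1 and 40.4 CPM and 50.8, 58.6 and 53.1 CPM, so that the groups were separate although PBS tumor 3, the lowest tumor for most of the 47 genes, was here the highest PBS tumor. The log2 fold change was small and tight (0.64, SE 0.17, adjusted p = 0.365). Of the other two, Dhx58, which encodes the regulator LGP2, was separate by a small gap (0.56, adjusted p = 0.757), and Zbp1, a sensor of Z-form nucleic acid, overlapped widely, from 4.65, 6.03 and 0.736 CPM in PBS to 2.30, 5.37 and 14.9 CPM in GB2 tumors (0.98, adjusted p = 0.809).

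The OAS family makes the oligoadenylates that activate RNase L, an activity that its relative OASL1 lacks. All 6 measured members were higher in GB2 tumors, with a median log2 fold change of 1.34, 3 passed an unadjusted p under 0.05 and 2 were separate. Oasl1, a translational repressor of Irf7, counted 0.829, 1.26 and 0.580 CPM in PBS and 1.68, 2.16 and 3.55 CPM in GB2 tumors. These low values were still separate by group (log2 fold change 1.47, SE 0.45, adjusted p = 0.474). Oas3 had the larger estimate but a wider error. It stood at 0.744, 0.781 and 0.283 CPM and 0.715, 1.19 and 4.35 CPM, so GB2 tumor 1 lay within the PBS range and GB2 tumor 3 carried most of the difference (log2 fold change 1.79, SE 0.75, adjusted p = 0.711). Without GB2 tumor 3 its log2 fold change was 0.66. Oas1a, the most abundant member by length with 6.66 ± 1.57 FPKM (SD, n = 3) and 11.7 ± 2.11 FPKM (SD, n = 3), had 17.5, 13.99 and 9.51 CPM in PBS and 18.3, 22.6 and 26.4 CPM in GB2 tumors. Its groups were separate by less than 1 CPM (log2 fold change 0.72, SE 0.27, adjusted p = 0.670). Oas1a and Oas1g are close copies, with 32.4% and 24.1% of their 150-base transcript windows shared, so reads could be divided between them and both values are uncertain. Oas1g, Oas2 and Oasl2 had log2 fold changes of 0.61, 1.23 and 1.45 (adjusted p 0.757, 0.757 and 0.737).

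The genes of the IFIT family sit among the most inducible of the response, and IFIT1 binds viral RNA that lacks host cap methylation. This family had the smallest median of any role group. It was 0.26 on the log2 scale, and 0 of 4 had an unadjusted p under 0.05. Ifit2, the most abundant by length, was higher in each GB2 tumor, but only just, with 38.9, 37.96 and 25.3 CPM in PBS and 42.3, 39.5 and 47.04 CPM in GB2 tumors (log2 fold change 0.33, SE 0.21, adjusted p = 0.767). Ifit1 was 9.45, 9.03 and 2.60 CPM in PBS and 4.41, 6.82 and 12.9 CPM in GB2 tumors, so that the spread inside each group was larger than the difference between their means (log2 fold change 0.20, SE 0.56, adjusted p = 0.933). PBS tumor 3 was also the lowest of the 6 tumors for Ifit3 (0.32, SE 0.55) and Ifit3b (-0.19, SE 0.64). The direction of these 3 genes turned when single tumors were left out. Without GB2 tumor 3 the log2 fold change of Ifit1 was -0.32 and that of Ifit3 was -0.23, and they were -0.19 and -0.06 when PBS tumor 3 was dropped. That of Ifit3b was 0.37 when PBS tumor 1 was dropped and 0.16 when GB2 tumor 1 was. Ifit3 and Ifit3b share 18.5% and 16% of their windows with each other and are uncertain as single genes. The 4 genes lie within 100 kb of one another on chromosome 19.

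ISG15 is a ubiquitin-like protein that is attached to other proteins during the response, and its gene, one of the classic markers of interferon, showed no detectable difference. Isg15 (ENSMUSG00000035692, chromosome 4, 156283912 to 156285253, minus strand) had 16.8, 10.9 and 4.07 CPM in PBS tumors and 6.25, 9.38 and 16.9 CPM in GB2 tumors. The highest PBS and the highest GB2 tumor were level, and so were the means, at 10.6 ± 6.38 and 10.9 ± 5.49 CPM (SD, n = 3). Its log2 fold change was 0.04 with an SE of 0.55 (adjusted p = 0.988), an error too wide to show a modest change in either direction with 3 tumors per group. It was -0.35 when PBS tumor 3 was dropped and -0.44 when GB2 tumor 3 was. The genes of the enzymes around it had higher means in GB2 tumors. Usp18, the protease that removes ISG15 and also restrains the receptor IFNAR2, was at 4.09, 5.36 and 1.82 CPM in PBS and 4.91, 10.1 and 19.8 CPM in GB2 tumors. GB2 tumor 1 lay inside the PBS range, and the other GB2 tumors lay above it (log2 fold change 1.62, SE 0.58, adjusted p = 0.617). Trim25, a ubiquitin ligase for RIG-I, varied little, from 12.9, 14.04 and 12.4 CPM in PBS tumors to 18.7, 20.9 and 27.1 CPM in GB2 tumors, and its groups were separate (log2 fold change 0.76, SE 0.21, adjusted p = 0.380). Herc6, the main ligase for ISG15 in the mouse, had a log2 fold change of 0.43 with overlapping groups (adjusted p = 0.799).

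Among the GTPases and other intracellular effectors, 8 of 9 were higher in GB2 tumors and the remaining gene was the clearest exception of all 47. Isg20 (ENSMUSG00000039236, chromosome 7, 78563172 to 78570055, plus strand), an exonuclease that degrades single-stranded RNA, was at 12.6, 14.8 and 19.8 CPM in PBS tumors and 7.36, 5.83 and 8.67 CPM in GB2 tumors. The highest GB2 tumor was below the lowest PBS tumor, the mean being 0.463 of the PBS mean (log2 fold change -1.11, SE 0.27, adjusted p = 0.292). In this gene PBS tumor 3 was the highest of the 6 tumors, where in most of the 47 it was the lowest. Cmpk2, a mitochondrial nucleotide kinase whose gene neighbours Rsad2 on chromosome 12, had 6.56, 8.29 and 6.85 CPM in PBS and 8.99, 10.8 and 28.6 CPM in GB2 tumors. The groups were separate, but GB2 tumors 1 and 2 were close to PBS tumor 2 (log2 fold change 1.16, SE 0.45, adjusted p = 0.675), and the value was 0.45 without GB2 tumor 3. Rsad2, which encodes the antiviral enzyme viperin, overlapped between the groups, with 16.2, 18.5 and 13.03 CPM and 9.78, 19.2 and 34.3 CPM (log2 fold change 0.41, SE 0.42, adjusted p = 0.836) and -0.13 without GB2 tumor 3. Rtp4, which helps receptors reach the cell surface, was at 9.25, 8.80 and 2.83 CPM in PBS and 9.10, 16.7 and 25.4 CPM in GB2 tumors, and Xaf1, a pro-apoptotic factor that counters XIAP, at 5.36, 9.17 and 3.03 CPM and 8.003, 16.2 and 15.6 CPM. In both genes GB2 tumor 1 lay within the PBS range and GB2 tumors 2 and 3 lay above it. Their log2 fold changes were 1.29 (SE 0.53, adjusted p = 0.698) and 1.18 (SE 0.45, adjusted p = 0.670), and 6.92% of the windows of Rtp4 are shared with the model Gm45338. By length Isg20 was the most abundant in this group in PBS tumors, at 7.93 FPKM, and Samd9l over the 6 tumors, at 8.92 FPKM. Samd9l, an inhibitor of translation, counted 18.97, 57.1 and 39.1 CPM in PBS and 57.5, 64.5 and 62.9 CPM in GB2 tumors. GB2 tumor 1 exceeded PBS tumor 2 by less than 1 CPM, and PBS tumor 1 was far below the other PBS tumors (log2 fold change 0.68, SE 0.36, adjusted p = 0.757, and 0.37 without PBS tumor 1). Mx1 and Mx2, dynamin-like antiviral GTPases, had log2 fold changes of 0.93 (adjusted p = 0.757) and 0.71 (adjusted p = 0.757). The Mx1 gene of C57BL/6 mice is known to carry a deletion that leaves no working protein, so its RNA reports induction only. Ifi44 was close to the detection limit in PBS tumor 3 (log2 fold change 1.38, SE 0.82).

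**Figure D2:**
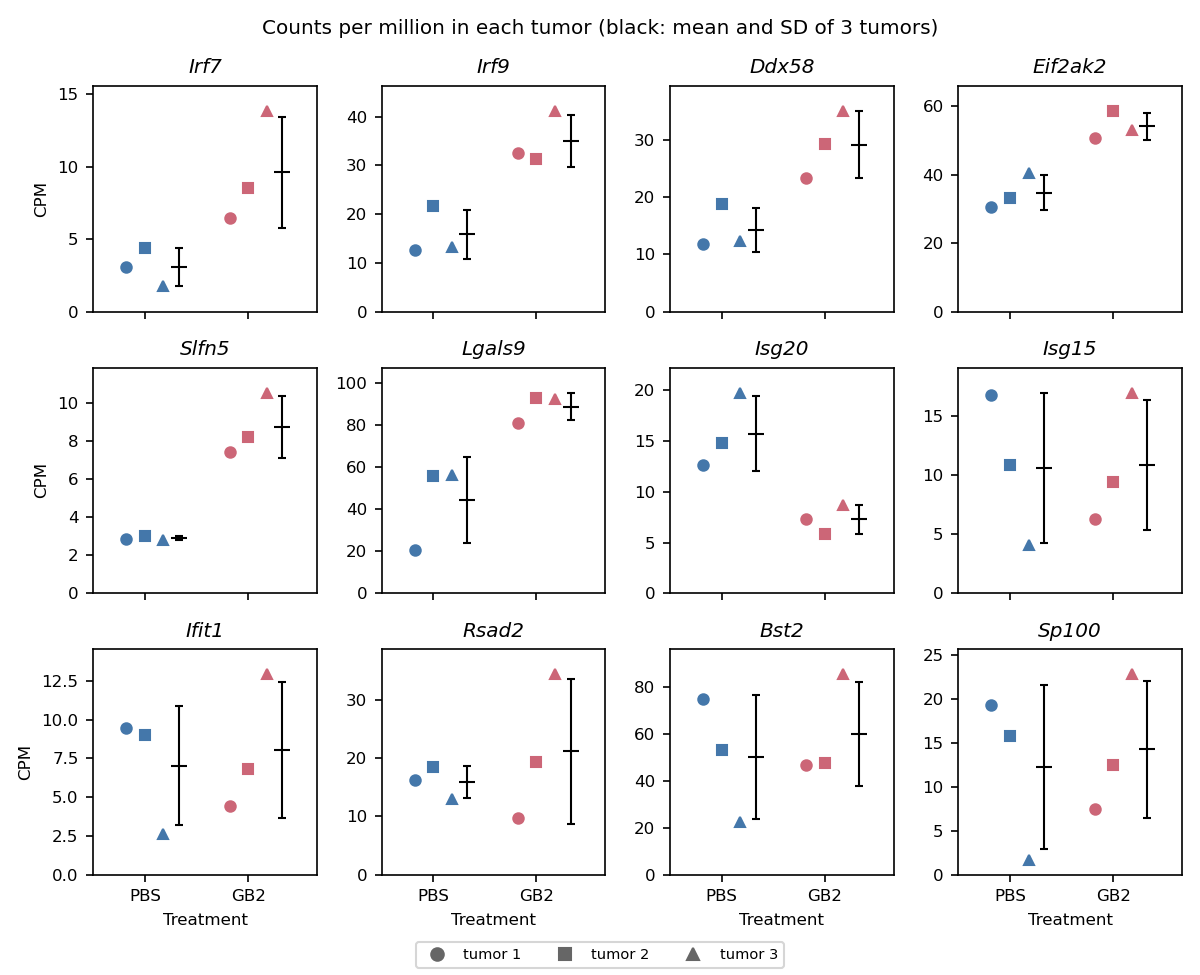
CPM in each tumor for 12 of the genes (vertical axes start at 0; circles, squares and triangles are tumors 1, 2 and 3, and black bars give the mean and SD of 3 tumors). The groups are apart in Irf7, Irf9, Ddx58, Eif2ak2, Slfn5, Lgals9 and, in the other direction, Isg20. They overlap in Isg15, Ifit1, Bst2 and Sp100, where PBS tumor 3 is the lowest and GB2 tumor 3 the highest. They also overlap in Rsad2, where GB2 tumor 1 is the lowest and GB2 tumor 3 the highest.

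The membrane and secreted proteins include the most abundant of the 47 transcripts. Per length, Ifitm3 stood first in both groups, with 77.3 ± 23.7 FPKM in PBS and 119.5 ± 32.1 FPKM in GB2 tumors (SD, n = 3). Behind it in PBS tumors were Ifi27, Bst2 and Lgals3bp with means of 52.7, 50.6 and 43.4 FPKM, whereas in GB2 tumors Lgals3bp (69.7 FPKM) stood before Ifi27 (68.5) and Bst2 (65.3), differences in order that are smaller than the SD of each gene. Over the 6 tumors Oas3 (0.182 FPKM) and Ifi44 (0.220 FPKM) were the least abundant. All 5 genes of the group were higher in GB2 tumors and 2 were separate. Ifitm1, a membrane protein that restricts virus fusion, had 0.406, 0.681 and 0.127 CPM in PBS tumors and 1.54, 1.42 and 1.36 CPM in GB2 tumors. The GB2 tumors were nearly equal and above every PBS tumor, at low counts, and PBS tumor 3 was below the 0.170 CPM that 3 read pairs give there (log2 fold change 1.83, SE 0.59, adjusted p = 0.527). Its abundant neighbour Ifitm3 differed less, with 68.6, 66.9 and 35.1 CPM in PBS and 59.4, 85.2 and 103 CPM in GB2 tumors (log2 fold change 0.54, SE 0.31, adjusted p = 0.757). Lgals9, which encodes the lectin galectin-9, a ligand of the T cell surface protein TIM-3, had 20.6, 55.9 and 56.5 CPM in PBS and 81.3, 92.9 and 92.5 CPM in GB2 tumors. The groups were separate, and PBS tumor 1 lay far below the other PBS tumors (log2 fold change 1.0, SE 0.36, adjusted p = 0.625), with 0.68 when PBS tumor 1 was left out. Bst2, the tether that holds budding virus at the cell surface, had a log2 fold change of 0.26 (adjusted p = 0.896) that was -0.09 when PBS tumor 3 was dropped and -0.08 when GB2 tumor 3 was, and Lgals3bp one of 0.64 (adjusted p = 0.757).

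Parp9, Parp14 and Dtx3l, neighbours on chromosome 16, encode ADP-ribosyltransferases and a ubiquitin ligase that acts in a complex with PARP9, and Parp12 encodes a further transferase that blocks viral translation. All 4 were higher in GB2 tumors, 1 passed an unadjusted p under 0.05 and 0 were separate. Parp14 had 9.74, 20.9 and 6.55 CPM in PBS and 16.98, 26.9 and 41.5 CPM in GB2 tumors, with PBS tumor 2 above GB2 tumor 1 (log2 fold change 1.20, SE 0.49, adjusted p = 0.697). Parp12, the most abundant by length, had 42.6, 50.00 and 24.2 CPM and 39.1, 58.7 and 82.02 CPM, with PBS tumors 1 and 2 above GB2 tumor 1 (log2 fold change 0.62, SE 0.35, adjusted p = 0.757). Parp9 (0.64, adjusted p = 0.736) and Dtx3l (0.61, adjusted p = 0.757) overlap each other on opposite strands, and how the counting used strand is not given in the sources used here.

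Slfn5 led the remaining interferon-induced genes and had the smallest p of all 47. Slfn5 (ENSMUSG00000054404, chromosome 11, 82842175 to 82852732, plus strand) belongs to the Schlafen family, which is linked to growth control of immune cells. It was at 2.86, 2.99 and 2.80 CPM in PBS tumors and 7.42, 8.21 and 10.5 CPM in GB2 tumors. The PBS tumors were almost identical and the lowest GB2 tumor was well above them, so the mean was 3.02-fold higher (log2 fold change 1.60, SE 0.25, adjusted p = 0.186). Its antisense partner Slfn5os was practically absent in both groups, with means of 0 CPM in PBS and 0.00397 CPM in GB2 tumors. Trim30a, a negative regulator of Toll-like receptor signaling, was at 8.52, 9.28 and 4.48 CPM in PBS and 11.7, 20.5 and 15.2 CPM in GB2 tumors. Its groups were separate (log2 fold change 1.09, SE 0.35, adjusted p = 0.515), and 3.24% of its windows are shared, mainly with Trim30d. Ifi27, the most abundant of these genes by length, overlapped between the groups, with 126, 74.8 and 53.9 CPM and 115, 90.6 and 102 CPM (log2 fold change 0.27, SE 0.31, adjusted p = 0.850). The nuclear body protein gene Sp100 ranged from 1.71 to 19.3 CPM inside the PBS group alone (0.22, SE 0.78). Epsti1 had 0 counts in PBS tumor 3, where 3 read pairs would give 0.170 CPM, a limit for counting error only, and at most 2.56 CPM elsewhere (1.03, SE 1.18). Ifi27l2a and Ifi35 had log2 fold changes of 1.05 and 0.17 and adjusted p of 0.757 and 0.901.

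The tumors numbered 3 stood at the ends of the range for most of the 47 genes. GB2 tumor 3 had the highest value of the 6 tumors in 36 of the 47 genes (76.6%, against 14.3% of all tested genes), and PBS tumor 3 had the lowest in 36 (76.6%, against 18.4%). Both held together in 30 genes (63.8%, against 4.85%). Over all tested genes PBS tumor 1 was most often the highest (31.8%) and most often the lowest (31.8%) of the 6. For the 47 genes these shares of PBS tumor 1 were 4.26% and 19.1%. As the median over the 47 genes of log2(CPM + 0.1) minus the mean of the gene, the PBS tumors stood at -0.29, -0.01 and -0.91 and the GB2 tumors at 0.02, 0.39 and 0.82. PBS tumor 2 and GB2 tumor 1 were nearly level. The labels do not say whether the numbers pair tumors across groups. The median SD of a gene inside a group was 0.63 in PBS and 0.45 in GB2 tumors on this scale for the 47 genes, against 0.43 and 0.23 for all tested genes.

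**Figure D3:**
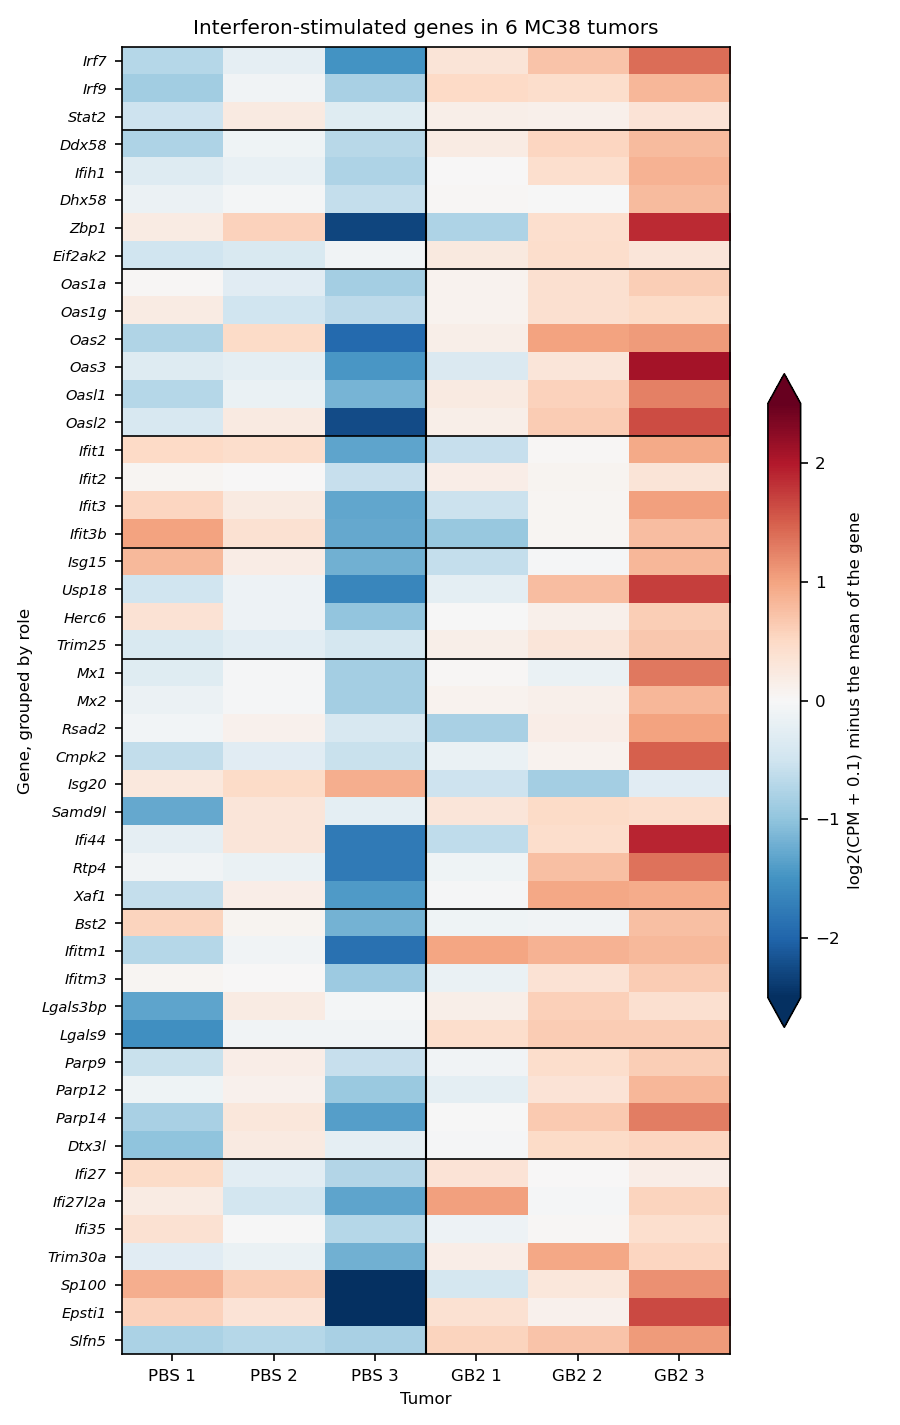
Level of each of the 47 genes in each tumor as log2(CPM + 0.1) minus the mean of the gene (color, clipped at 2.5 in both directions), with genes in rows grouped by role. PBS tumor 3 is the lowest column in 36 genes and GB2 tumor 3 the highest in 36, and Isg20 is low in all 3 GB2 tumors.

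Leaving out tumors moved the count of genes with an unadjusted p under 0.05 more than any scaling or model that was tried. With all tumors 19 genes had one, where 6.94% of all tested genes did. With GB2 tumor 3 left out 9 of the 47 did, and with PBS tumor 3 left out 11 did. Without both of them, an alternative added after the data were seen, 34 of 47 genes were higher, the median log2 fold change was 0.37, and 6 genes had an unadjusted p under 0.05. These were Irf7, Irf9, Eif2ak2, Ifitm1 and Slfn5, higher in GB2 tumors, and Isg20, lower. Shares of all tested genes are not given here for fits with tumors left out, so their counts are not set against a background. With each tumor left out in turn, an unadjusted p under 0.05 was kept every time by 7 of the 18 higher genes (Irf7, Irf9, Ddx58, Eif2ak2, Trim25, Ifitm1 and Slfn5) and by Isg20, and 39 of the 47 genes kept their direction. The size moved more. In 30 of the 47 genes the log2 fold change moved by over 1.5 times, or turned, when 1 of the tumors was left out, and in the other 17 it did not. Dropping GB2 tumor 3 gave 0.014 for Zbp1, 0.25 for Dhx58, 0.30 for Mx1, 0.42 for Mx2, 0.38 for Ifi44, 0.998 for Usp18, 0.91 for Oasl2, 0.33 for Parp12 and 0.35 for Epsti1. Dropping PBS tumor 3 gave 0.15 for Herc6, 0.29 for Ifitm3, 0.04 for Ifi27 and 0.16 for Ifit2, and dropping PBS tumor 1 gave 0.24 for Stat2, 0.32 for Lgals3bp, 0.35 for Dtx3l and, higher than with all tumors, 0.93 for Oas1g. With PBS tumor 2 dropped the value was higher for Oas2 (2.06), Parp14 (1.81), Zbp1 (1.49), Samd9l (1.09), Dtx3l (0.93) and Stat2 (0.62). Some values also rose with PBS tumor 1 dropped, to 1.58 for Epsti1, 0.78 for Herc6 and 0.68 for Ifi27. Without PBS tumor 3 the value fell to 0.81 for Oas2, 0.50 for Zbp1, 0.45 for Epsti1 and 0.38 for Parp12.

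Outside the 47 genes, the 5 ligand genes that were found were too low to be tested. The receptor and signaling genes listed here did not reach an unadjusted p under 0.05. Of the 18 type I interferon genes looked for, 5 were found in the table, and their summed level was at most 0.155 CPM in any tumor. Ifnb1 had counts in 1 tumor only, GB2 tumor 3 (4 counts or 1 read pair, 0.0471 CPM), and Ifna7 and Ifnab had none in any. Ifnk and Ifnz, at no more than 0.0849 and 0.155 CPM in any tumor, did not pass the filter on low counts. The remaining ligand genes looked for were not found, so their level is not known here. Of 14 receptor and signaling genes, 11 were higher in GB2 tumors, with a median log2 fold change of 0.24, and 0 had an unadjusted p under 0.05 or an adjusted p under 0.05. The receptor genes Ifnar1 and Ifnar2 had log2 fold changes of 0.35 (adjusted p = 0.821) and 0.25 (adjusted p = 0.771) and the kinase genes Jak1 and Tyk2 0.36 and 0.34. In the DNA-sensing branch that GB2 is built to trigger, Sting1, the target of MSA-2, had 33.6, 50.6 and 47.6 CPM and 49.9, 61.1 and 36.5 CPM (log2 fold change 0.16, SE 0.25). Cgas was separate between the groups by a small margin (0.44, adjusted p = 0.757), and Tbk1, Ikbke, Irf3 and Mavs had values of -0.26, 0.08, -0.22 and 0.23. The feedback inhibitor genes Socs1 (1.06, SE 1.10) and Socs3 (0.41, SE 0.24), the factor Irf1 (0.21) and the phosphatase gene Ptpn6 (-0.22) also did not pass, although Ptpn6 was separate, with 77.9, 79.7 and 89.5 CPM in PBS and 67.3, 70.97 and 74.4 CPM in GB2 tumors. Among 4 interferon-inducible chemokines, Ccl5 was lower in every GB2 tumor, with 2.57, 3.79 and 2.22 CPM in PBS and 1.55, 1.57 and 1.51 CPM in GB2 tumors (log2 fold change -0.89, SE 0.32, adjusted p = 0.625), and the other 3, Cxcl9, Cxcl10 and Cxcl11, had log2 fold changes of 1.13, 0.60 and 1.11 with overlapping groups and did not reach an unadjusted p under 0.05.

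Among genes that answer mainly to interferon-gamma the groups interleaved. Of 18 interferon-gamma inducible GTPases (Gbp and Irg families, which attack vacuoles of intracellular microbes), 17 were higher, their median log2 fold change was 1.09, and 0 had an unadjusted p under 0.05. PBS tumor 3 was the lowest of the 6 tumors in 17 and GB2 tumor 3 the highest in 15 of these genes. On the scale used above their medians were -0.09, 0.93 and -2.54 in PBS tumors and -0.72, 0.85 and 1.80 in GB2 tumors, so that GB2 tumor 1 lay below PBS tumors 1 and 2 and GB2 tumor 2 below PBS tumor 2. The 10 genes of MHC class I presentation split evenly, with 5 higher, a median of -0.06 and 0 with an unadjusted p under 0.05. Whether the fold changes of the 47 genes differ from those of the GTPases was not tested.

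Markers of other cells differed between the groups beside the interferon-stimulated genes. The marker lists, too, were chosen with earlier results of these data known. All 10 macrophage markers had an unadjusted p under 0.05 and were separate, and their summed level was 65.2 to 92.3 CPM in PBS and 254 to 354 CPM in GB2 tumors, with none at 0. The 5 fibroblast markers, all with an unadjusted p under 0.05, summed to 269 to 503 CPM and 935 to 1305 CPM, and the 5 endothelial markers, of which 4 passed, to 43.5 to 61.5 CPM and 97.6 to 111 CPM. The endothelial marker that did not pass, Vwf, went the other way, with a log2 fold change of -0.48 and overlapping groups. Neutrophil markers (4 of 5 passed) summed to 2.07 to 4.44 CPM and 9.14 to 12.0 CPM, monocyte markers (2 of 5) to 2.14 to 8.63 CPM and 13.2 to 25.1 CPM, and conventional dendritic cell markers (1 of 3 tested, with Xcr1 and Flt3 below 3 read pairs in every tumor) to 8.15 to 10.4 CPM and 13.6 to 16.1 CPM. Plasmacytoid dendritic cells are strong producers of type I interferon, and their marker Siglech was below 3 read pairs in every tumor. Their 4 measured markers summed to 2.32 to 3.14 CPM and 2.85 to 3.21 CPM, and 0 of the 3 tested passed. Pacsin1 was separate and higher in GB2 tumors, while Cox6a2 went the other way, with a log2 fold change of -0.87 and overlapping groups. Nearly all of the sum came from these genes, since Ccr9 averaged 0.105 CPM in PBS and 0.131 CPM in GB2 tumors. T cell markers (0.368 to 4.56 CPM in PBS, 0.643 to 2.72 CPM in GB2 tumors), NK cell markers (0.170 to 1.93 and 0.929 to 3.32 CPM) and B cell markers (0.440 to 0.863 and 0.441 to 0.866 CPM) were scarce, and none passed. Erythroid markers were lower on the whole but with overlapping ranges, at 345 to 5007 CPM in PBS and 67.5 to 916 CPM in GB2 tumors, and 1 of 3, Hba-a1, had an unadjusted p under 0.05. Keratinocyte markers (0 of 4 passed) summed to 19.0 to 80.6 and 64.3 to 113 CPM, skeletal muscle markers (1 of 3 passed, Acta1, which was separate, as was Ckm) to 59.2 to 104 and 103 to 141 CPM, and adipocyte markers (0 of 3 passed, with Plin1 separate) to 1.32 to 17.9 and 17.0 to 23.8 CPM. The 6 colon epithelium markers summed to only 3.00 to 5.97 and 4.08 to 8.52 CPM, and 1 of the 5 tested, Epcam, passed and was separate, as was Krt20, which did not pass. The labelled origin of the line was little visible in these genes. The part of cell composition in the differences of the interferon-stimulated genes was not tested.

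**Figure D4:**
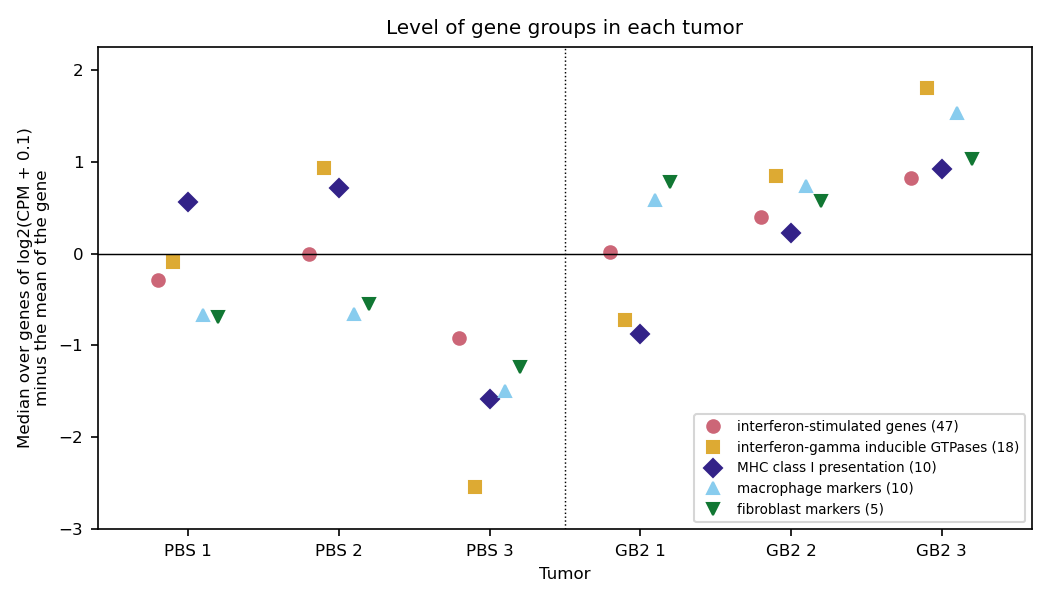
Median over the genes of a group of log2(CPM + 0.1) minus the mean of the gene, in each tumor, for the 47 interferon-stimulated genes and 4 groups set beside them. The 47 genes and both marker groups are above 0 in every GB2 tumor, the GTPases and the MHC class I genes are below 0 in GB2 tumor 1, and all 5 groups are lowest in PBS tumor 3.

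The 47 genes were listed as interferon-stimulated genes, so annotations that they share describe that list and are not an independent result. The table annotates 28 of them to defense response to virus, a term carried by 0.867% of tested genes, and 28 to innate immune response, carried by 1.93%. They lie on 15 chromosomes, with 7 on chromosome 11 and 6 each on chromosomes 5 and 16, and 21 of them are within 100 kb of another of the 47. Of the 17 genes with an ISRE core 7 were separate and higher in GB2 tumors, with a median log2 fold change of 0.61, as were 8 of the 19 without one, with a median of 0.76.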

How the data were processed

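Total RNA of 6 tumors was sequenced as poly-A selected, dUTP-stranded paired-end libraries, per the labels. The authors deposited, for each gene and tumor, an estimated count and an FPKM value. The deposited estimated counts are whole numbers not scaled between tumors, and low values pile up at 4 (7017 values of 4, against 2984 of 3 and 2017 of 5), so about 4 counts stand for 1 read pair. The deposited FPKM are divided by transcript length and library total, and are used to compare levels between genes and in the limma alternatives. The submitters' processing notes name cutadapt 1.9, HISAT2 2.2.1, StringTie 2.1.6, DESeq2, edgeR and the build mm10. Of the 47 genes, 1 has in this table the start and end of the GRCm38 annotation, so its positions are printed as given, and only promoter stretches carry GRCm38.p6 coordinates.

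In R 4.3.3, edgeR 4.0.16 kept genes by filterByExpr with a minimum count of 10, leaving 19602, scaled libraries by TMM (factors 0.914 to 1.036) and compared all 6 tumors by glmQLFit and glmQLFTest with no covariate. Calls took a limit of 0.05 on the adjusted p and a change of 2-fold or more. Standard errors come from the test statistic. The common dispersion was 0.164 (a biological coefficient of variation of 40.5%), which limits what 3 tumors per group can show, and the smallest adjusted p of any gene was 0.166. The alternatives were DESeq2 1.42.0, other scaling, no filter, counts divided by 4, limma 3.58.1 on log2(FPKM + 1) and log2(FPKM + 0.1), a replicate block and left-out tumors. The fits were tested on simulated counts, but no outcome of that is given here. All 47 genes are accounted for, with full values for those at an unadjusted p under 0.05 and, per role group, for the smallest p and the highest mean FPKM. Rsad2, Ifit1 and other genes with values were added after their values were seen. The genes, their roles and the marker lists (macrophage, monocyte, plasmacytoid and conventional dendritic cell, neutrophil, T cell, NK cell, B cell, endothelial cell, fibroblast, keratinocyte, skeletal muscle, adipocyte, erythroid, colon epithelium) were chosen with earlier results of these data known. Shared 150-base windows were counted over GENCODE vM21 transcripts, and 8 of the 47 genes share 1% or more.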

Additional observations from a re-analysis of the deposited data

How the results depend on the processing

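No alternative scaling, filter or model turned the direction of any of the 47 genes that it tested, and the reversals, in 12 genes, came from leaving out tumors. DESeq2 called 5 of the 47 genes where edgeR called 0, and 0 were called under each other setting. Of all genes it tested, DESeq2 called 1.45% higher and 0.155% lower. With single tumors left out, 0 genes were called, those with an unadjusted p under 0.05 ran from 9 (GB2 tumor 3 left out) to 23, genes higher in GB2 tumors from 38 to 46, and the median log2 fold change from 0.50 to 0.94. The log2 fold change then ran from -0.32 to 0.49 for Ifit1, -0.23 to 0.70 for Ifit3, -0.69 to 0.37 for Ifit3b, -0.44 to 0.55 for Isg15, -0.13 to 0.75 for Rsad2, -0.087 to 0.68 for Bst2, -0.072 to 0.46 for Ifi35 and -0.29 to 0.72 for Sp100. With tumor 3 of both groups left out, a setting added after the data were seen that keeps 2 tumors a group, 6 genes had an unadjusted p under 0.05, and the log2 fold change was -0.47 for Zbp1, -0.72 for Ifit1, -0.61 for Ifit3, -0.82 for Isg15, -0.063 for Herc6, -0.26 for Rsad2, -0.056 for Ifi44, -0.43 for Bst2, -0.25 for Ifi35, -0.80 for Sp100 and -0.24 for Epsti1. The cause was not tested. The tumor numbers are shared by the groups, and the labels do not say whether they pair the tumors. Same-numbered tumors deviated from their group means with correlations of 0.03, 0.15 and -0.24 across genes. These values show no pairing but cannot exclude one. With the number as a replicate block, 0 genes were called, 18 had an unadjusted p under 0.05, 45 were higher and the median log2 fold change was 0.74. For this block and for left-out tumors, shares of all tested genes are not given here, so the counts are not set against a background. The limma fits on filtered FPKM tested 41 of the 47 genes. Depth limits Epsti1, Oas3, Oasl1, Ifi44, Ifi27l2a, Zbp1 and Ifitm1, which had under 1 CPM in at least 1 PBS tumor.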
